A study of Homo sapiens with 4 samples.

Results

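Cholesterol and fatty acids are both built from acetyl-CoA, and the 31 genes described here encode enzymes of these routes and the proteins that control them. The genes were listed by name for this function, with earlier results of these data known. All 31 were found among the 18449 gene symbols with deposited counts, and all 31 were among the 18066 genes with a nonzero total that were tested. Bulk RNA sequencing was done on BT-16 and CHLA-266, established patient-derived cell lines of atypical teratoid/rhabdoid tumor of the MYC subtype (AT/RT-MYC), an embryonal brain tumor of early childhood. For each cell line there was 1 untreated library and 1 library of treated cells, so that 2 untreated libraries (both without drug) were set against 2 treated libraries and the cell lines stood in for replicates. Treated cells had been exposed on consecutive days to 1 µM doxorubicin (doxo), 5 µM etoposide (eto), and 1 µM vincristine (vin). Most cells died, and the library was made from the survivors once they had grown out again, so the treated libraries describe surviving cells some time after the drugs and not cells under acute exposure. Both conditions shared the culture medium, which held fetal bovine serum, insulin, transferrin, and selenous acid, and the labels put all 4 libraries in the same batch. The comparison asks how surviving cells differ from the cells before treatment.

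Sterol synthesis is set by a feedback loop. The transcription factor SREBP2 (gene *SREBF2*) and its relative SREBP1 (gene *SREBF1*) are made as membrane proteins of the endoplasmic reticulum, from where SCAP escorts them to the Golgi apparatus when sterols are scarce. Proteases there release the active part, which enters the nucleus and switches on the genes of sterol and fatty acid synthesis. When sterols are plentiful, INSIG1 and INSIG2 hold SCAP back, and oxidized sterols activate the LXR receptors, which switch on genes of sterol efflux. Dividing cells draw on both routes for membranes, and the brain makes its own cholesterol because lipoproteins of the blood do not reach it.

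Promoter sequence was taken from RefSeq for the genome build GRCh38.p14, from 250 bases before to 50 bases after each annotated gene start, and 27 of the 31 genes had such a window (38 windows in all). No window was matched for *ACAT2*, *FASN*, *FDFT1*, and *SQLE*. Both strands were searched for the letters TCACNCCAC (a sterol regulatory element bound by SREBP), CCAAT (the box bound by NF-Y, a partner of SREBP), and CACGTG (an E-box). The CCAAT box was found in 19 of the 27 genes (70.4%), against 39.7% of all 27305 genes with a window. Those 27305 genes were not limited to expressed genes, and the number of windows per gene was not matched. The E-box was found in 4 genes (*INSIG1*, *LSS*, *SC5D*, and *SCAP*; 14.8% against 8.77% of all genes), and the sterol regulatory element in *SREBF2* alone (3.7% against 1.39%). These shares are descriptions and were not tested, and a match of letters does not show binding. A search for a single string of letters in such a window cannot show that a gene without a match lacks the element. The windows of 5 genes are printed below, 5′ to 3′ on the strand of the gene, with matches in capitals (ATTGG is CCAAT on the opposite strand). *HMGCS1* (chr5:43313363-43313662, minus strand, the first of its 2 windows), *INSIG1* (chr7:155297628-155297927, plus strand), and *STARD4* (chr5:111512486-111512785, minus strand) are shown as strongly downregulated genes. *SCD* (chr10:100346983-100347282, plus strand) is shown as an upregulated gene, and *SREBF2* (chr22:41832855-41833154, plus strand) for its match to the letters of the sterol regulatory element.

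HMGCS1: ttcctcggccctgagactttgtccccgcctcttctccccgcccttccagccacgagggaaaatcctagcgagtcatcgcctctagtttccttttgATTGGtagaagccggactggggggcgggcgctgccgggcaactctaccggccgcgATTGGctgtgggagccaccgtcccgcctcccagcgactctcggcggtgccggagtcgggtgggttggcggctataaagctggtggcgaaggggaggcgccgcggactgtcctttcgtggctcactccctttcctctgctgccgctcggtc
INSIG1: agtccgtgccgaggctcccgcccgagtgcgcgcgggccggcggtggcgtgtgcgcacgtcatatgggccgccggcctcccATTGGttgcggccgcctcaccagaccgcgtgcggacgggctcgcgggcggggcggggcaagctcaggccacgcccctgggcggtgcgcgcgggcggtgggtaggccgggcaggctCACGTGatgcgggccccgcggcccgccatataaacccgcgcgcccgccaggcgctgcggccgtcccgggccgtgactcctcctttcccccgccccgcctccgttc
STARD4: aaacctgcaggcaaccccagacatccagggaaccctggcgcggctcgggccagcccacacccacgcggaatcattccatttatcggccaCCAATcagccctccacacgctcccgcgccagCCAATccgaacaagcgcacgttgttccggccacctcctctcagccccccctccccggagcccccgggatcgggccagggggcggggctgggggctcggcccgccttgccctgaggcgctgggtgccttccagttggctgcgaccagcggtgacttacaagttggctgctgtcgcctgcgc
SCD: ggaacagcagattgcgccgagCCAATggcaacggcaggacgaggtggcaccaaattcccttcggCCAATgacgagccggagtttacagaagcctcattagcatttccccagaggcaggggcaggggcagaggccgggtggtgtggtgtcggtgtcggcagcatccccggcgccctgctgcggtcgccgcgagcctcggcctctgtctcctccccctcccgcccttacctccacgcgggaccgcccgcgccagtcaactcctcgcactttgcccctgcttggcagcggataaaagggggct
SREBF2: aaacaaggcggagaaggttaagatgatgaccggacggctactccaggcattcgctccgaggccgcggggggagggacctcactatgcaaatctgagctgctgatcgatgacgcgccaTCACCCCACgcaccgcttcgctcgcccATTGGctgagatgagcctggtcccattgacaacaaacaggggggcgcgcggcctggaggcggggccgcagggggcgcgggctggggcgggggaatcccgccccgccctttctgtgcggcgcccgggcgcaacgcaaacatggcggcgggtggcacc

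*HMGCS1*, *STARD4*, and *SCD* each hold a pair of CCAAT boxes in this window, so the box was present both in genes that fell and in a gene that rose. *INSIG1* holds 1 CCAAT box and 1 E-box. In *SREBF2*, the sterol regulatory element begins at position -133 from the gene start and the CCAAT box at -106, and the matches do not overlap.

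The 4 libraries held between 49849257 and 75087193 counts, with the smaller total in the treated library of each cell line. More genes had a count above 0 after treatment (BT-16, 16079 before and 17815 after; CHLA-266, 15464 before and 17114 after). The 31 genes took between 0.369 and 0.524% of all counts, and single values ran from 117 counts (*STARD4*, treated BT-16) to 95875 counts (*SCD*, treated CHLA-266). Levels are given as CPM, which are counts scaled to equal library totals with the TMM factors of edgeR, and single genes are compared in level only per kilobase of exon, while sums of CPM over genes are not divided by length. Log2 fold changes are treated against untreated, with a standard error (SE) and a *p* value from the quasi-likelihood test of edgeR, adjusted over all 18066 genes, and genes under an adjusted *p* of 0.05 are called differentially expressed (DEG). These *p* values rest on the spread between libraries of different cell lines, with n = 2 libraries per condition, and permuting 4 libraries exactly cannot bring a two-sided *p* under 0.333. Log2 ratios within a cell line carry exact Clopper-Pearson 95% intervals, which reflect nothing but counting error and are too narrow if both reads of a pair were counted. In bulk RNA, fewer cells that express a gene and less of its RNA per cell cannot be told apart. As a check of the cell lines, *MYC* had between 6804 and 14275 counts. *SMARCB1*, whose loss defines AT/RT, had between 827 and 1394 counts, and gene counts do not tell whether such RNA comes from an intact allele. *HOXC10* (8 to 49 counts) and *HOXC11* (0 to 20 counts) were low throughout. *MKI67*, a marker of dividing cells that was added after its values were seen, dropped from 109853 to 1262 counts in BT-16, and CHLA-266 went from 96814 to 1386 counts. The paper reports regrowth of resistant cells before harvest, and how the low *MKI67* of the treated libraries relates to that account was not tested. The part of *MKI67* in the values of the lipid genes was not tested either.

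Of the 31 genes, 21 were downregulated after treatment (67.7%), 2 were upregulated (*AACS* and *SCD*, 6.45%), and 8 did not pass the threshold. Among all 18066 genes, 19.1% were downregulated and 16.1% upregulated. The 31 genes are well expressed, and among the 9378 genes with a mean count of at least 459, the lowest mean of the 31, 35.1% were downregulated and 10.5% upregulated. Over the 31 genes, the log2 fold change had a median of -1.06, against 0.24 over all genes and -0.32 over those 9378. In 24 of the 31 genes, both treated libraries lay below both untreated ones, which was so for 32.3% of all genes. In *AACS* and *SCD* both treated libraries lay above both untreated ones, as in 40.2% of all genes. With the cell line as a block, 24 genes were downregulated, *TM7SF2*, *SREBF2*, and *ACACA* being the ones added, and 2 were upregulated, against 23.7 and 17.9% of all genes. Without the untreated BT-16 library, 15 of the 31 genes were downregulated, and 12.9% of all genes. Without the untreated CHLA-266 library, 1 gene remained upregulated.

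**Figure D1:**
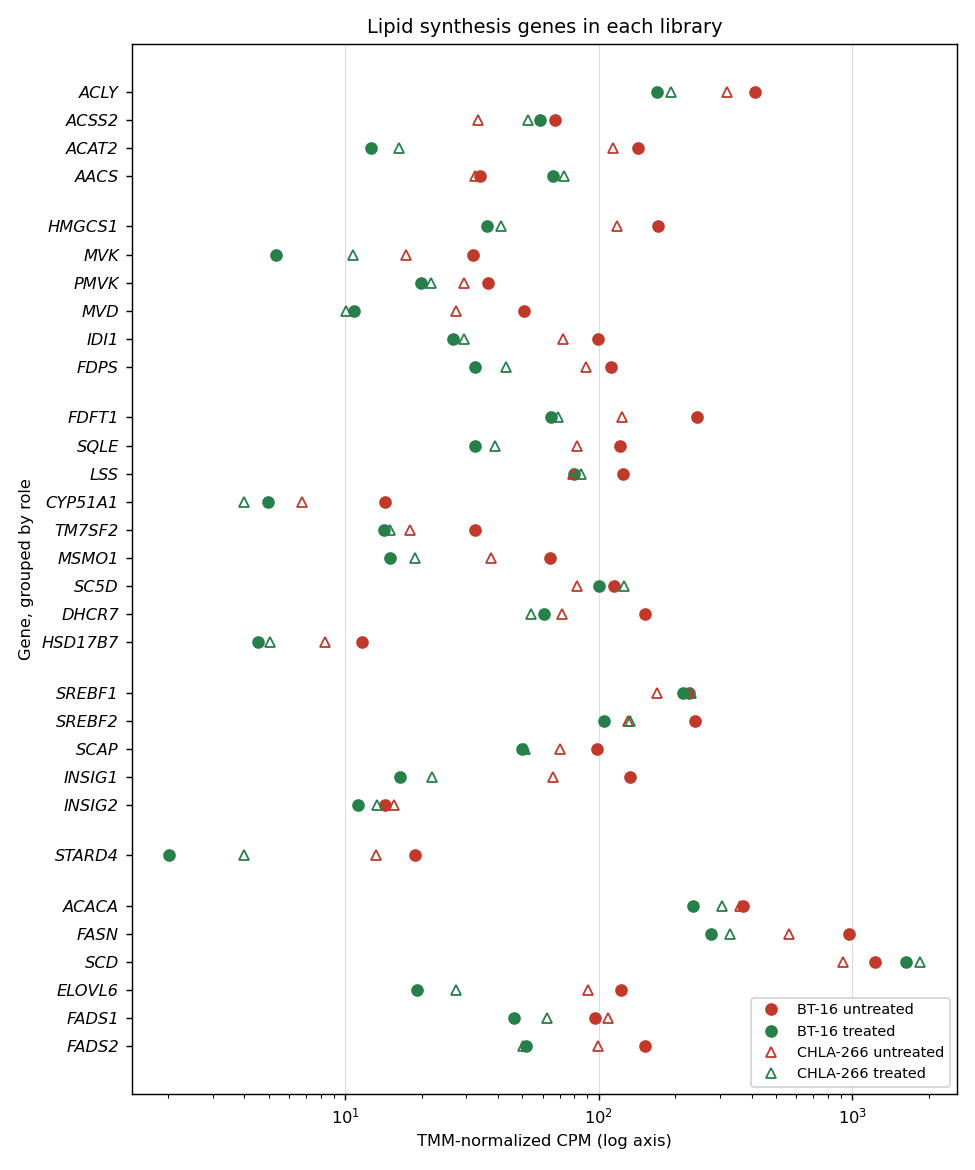
TMM-normalized CPM (log axis) of the 31 genes, grouped by role, in each of the 4 libraries, with circles for BT-16, triangles for CHLA-266, red for untreated, and green for treated. In 24 genes both green symbols lie left of both red ones, while *AACS* and *SCD* show the opposite order.

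**Figure D2:**
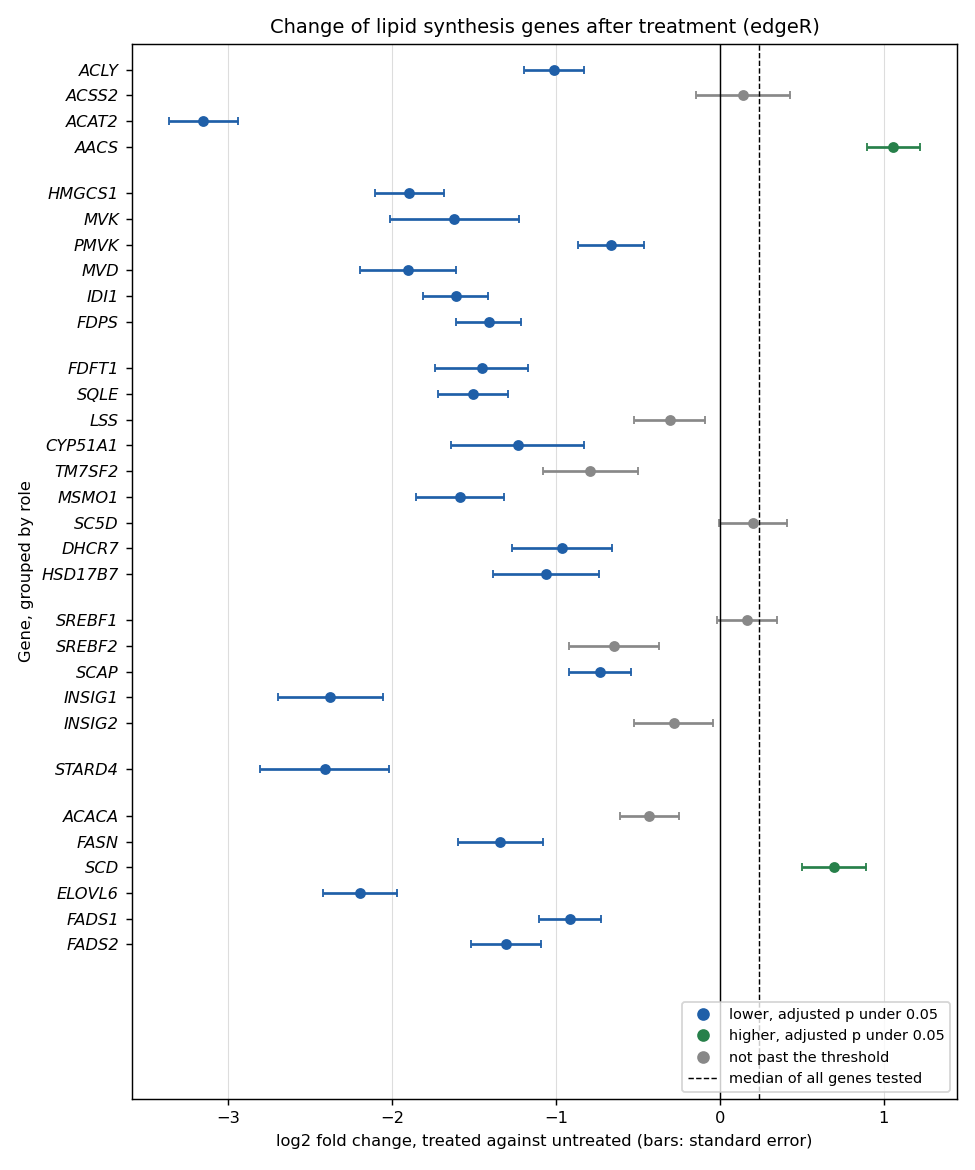
Log2 fold change of each gene, treated against untreated, from edgeR, with bars of 1 standard error and n = 2 libraries per condition. Blue points are downregulated (21 genes), green points upregulated (2), and grey points did not pass the threshold (8), and the dashed line marks the median of all genes at 0.24.

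The enzymes that supply acetyl-CoA and acetoacetyl-CoA went in different directions. *ACAT2* fell most of all 31 genes, *ACLY* fell as well, *AACS* rose, and *ACSS2* did not pass the threshold. *ACAT2* (ENSG00000120437, chromosome 6 of hg38, 159762045 to 159779112, plus strand) encodes the cytosolic thiolase that joins acetyl-CoA units to acetoacetyl-CoA at the start of sterol synthesis. Its level was 143 CPM in untreated and 12.6 CPM in treated BT-16 cells, and 113 and 16.3 CPM in CHLA-266 cells. Both treated libraries thus lay far below both untreated ones, and expression was 8.89-fold lower (log2 fold change -3.15, SE 0.21, adjusted *p* = 1.74e-05). When any single library was omitted, the value stayed between -3.34 and -2.97. Part of the exons of *ACAT2* (17.2% of the bases) lies opposite *TCP1*, and the strand setting of the counting is not stated. *ACLY*, which makes acetyl-CoA from citrate, had 412 and 170 CPM before and after treatment in BT-16 and 321 and 193 CPM in CHLA-266 cells (log2 fold change -1.01, SE 0.18, adjusted *p* = 0.00417), without overlap of the groups.

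*AACS* encodes an enzyme that turns the ketone body acetoacetate into acetoacetyl-CoA in the cytosol. It rose from 34.1 to 65.7 CPM in BT-16 and from 32.6 to 73.1 CPM in CHLA-266, a 2.08-fold difference (log2 fold change 1.06, SE 0.16, adjusted *p* = 0.00182). *AACS* and *ACAT2* make the same product from different sources, and the first rose in both cell lines where the second fell. Per kilobase of exon, the mean level of *ACAT2* went from 48.6 to 5.47 CPM and that of *AACS* from 2.08 to 4.33 CPM. The length used is that of all annotated exons together, 2639 bases in *ACAT2* and 16039 in *AACS*. How the genes compare in level depends on this length, since undivided CPM after treatment were higher for *AACS* than for *ACAT2*. *ACSS2*, which makes acetyl-CoA from acetate, had 67.3 and 58.6 CPM in BT-16 and 33.6 and 52.5 CPM in CHLA-266, so the groups overlapped (log2 fold change 0.14, SE 0.29, adjusted *p* = 0.712). Without the untreated BT-16 library, the value of *ACSS2* was 0.73 (adjusted *p* = 0.0466), and without the untreated CHLA-266 library it was -0.28 (adjusted *p* = 0.379).

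All 6 genes of the mevalonate steps were downregulated (100%, against 19.1% of all genes and 35.1% of those with a mean count of at least 459). These enzymes turn acetoacetyl-CoA into the isoprenoid farnesyl diphosphate, and their median log2 fold change was -1.62. The first of them, *HMGCS1* (ENSG00000112972, chromosome 5, 43287470 to 43313512, minus strand), encodes cytosolic HMG-CoA synthase, and its promoter is among those printed above. It had 171 CPM in untreated and 36.4 CPM in treated BT-16 cells, and 118 and 41.3 CPM in CHLA-266 cells. The treated libraries were close to each other and both far below the untreated ones (3.72-fold lower, log2 fold change -1.89, SE 0.21, adjusted *p* = 0.000352). An annotated gene without a name lies opposite 37.7% of its exon bases. *MVD*, the decarboxylase that makes isopentenyl diphosphate, fell from 50.7 to 10.8 CPM and from 27.3 to 10.0 CPM (log2 fold change -1.90, SE 0.30, adjusted *p* = 0.00192). *IDI1*, which isomerizes that product, had a log2 fold change of -1.61 (adjusted *p* = 0.000577), and *FDPS*, which makes farnesyl diphosphate, one of -1.41 (adjusted *p* = 0.00123). Antisense genes cover 15.0% of the exon bases of *IDI1* and 18.6% of those of *FDPS*.

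*MVK* and *PMVK* encode the kinases of this route. *MVK*, mevalonate kinase, had 32.0 CPM in untreated and 5.33 CPM in treated BT-16 cells, and 17.3 and 10.7 CPM in CHLA-266 cells. The groups did not overlap, but the log2 ratio was -2.58 (interval -2.76 to -2.41) in BT-16 and -0.69 (interval -0.84 to -0.54) in CHLA-266. In the test over both lines, *MVK* had a log2 fold change of -1.62 (SE 0.39, adjusted *p* = 0.0142), and without the untreated BT-16 library it was -1.11 (adjusted *p* = 0.0781). *PMVK*, which adds the next phosphate, had the smallest difference of the 6 genes (log2 fold change -0.66, SE 0.20, adjusted *p* = 0.0318). Without the untreated or the treated BT-16 library, the adjusted *p* of *PMVK* was 0.192 or 0.0529.

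Of the 9 genes that act from squalene to cholesterol, 6 were downregulated (66.7%). This compares with 19.1% of all genes and 35.1% of those with a mean count of at least 459. The other 3 of the 9 genes (*LSS*, *TM7SF2*, and *SC5D*) did not pass the threshold. *FDFT1* (squalene synthase) and *SQLE* (squalene epoxidase, a rate-limiting enzyme of the pathway) begin this stretch. *FDFT1* had 243 and 65.0 CPM before and after treatment in BT-16 and 124 and 69.0 CPM in CHLA-266 cells (log2 fold change -1.45, SE 0.28, adjusted *p* = 0.00579). *SQLE* had 121 and 32.5 CPM in BT-16 and 81.9 and 38.9 CPM in CHLA-266 (log2 fold change -1.51, SE 0.22, adjusted *p* = 0.00133). In both genes the treated libraries were close together, and the untreated BT-16 library was the highest. Without that library, the value of *FDFT1* was -0.88 and its adjusted *p* 0.0142.

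*LSS*, which closes squalene epoxide to lanosterol, did not follow its neighbors in the pathway. It had 125 CPM in untreated BT-16 cells, 80.0 CPM in treated BT-16 cells, 79.4 CPM in untreated CHLA-266 cells, and 85.2 CPM in treated CHLA-266 cells. Untreated BT-16 thus stood above 3 nearly equal libraries (log2 fold change -0.31, SE 0.22, adjusted *p* = 0.289). Upper-quartile normalization and the omission of untreated BT-16 turned the sign of *LSS* (0.045 and 0.057). *SC5D*, which introduces a double bond late in the pathway, had 115 and 100 CPM in BT-16 and 82.0 and 126 CPM in CHLA-266 (log2 fold change 0.20, SE 0.21, adjusted *p* = 0.455), and the groups overlapped.

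Removal of the methyl groups of lanosterol involves *CYP51A1*, *TM7SF2*, *MSMO1*, and *HSD17B7*. *MSMO1*, the methylsterol oxidase, had 64.0 and 15.1 CPM before and after treatment in BT-16 and 37.6 and 18.8 CPM in CHLA-266 cells (log2 fold change -1.59, SE 0.27, adjusted *p* = 0.00298). *HSD17B7*, a sterol ketone reductase, had 11.6 and 4.52 CPM in BT-16 and 8.30 and 5.04 CPM in CHLA-266 (log2 fold change -1.06, adjusted *p* = 0.0331). *CYP51A1*, the demethylase, is uncertain, because 68.2% of its exon bases also belong to another annotated gene on the same strand, and it had only 207 to 990 counts (log2 fold change -1.23, SE 0.40, adjusted *p* = 0.0430). Without untreated BT-16, the adjusted *p* was 0.169 for *HSD17B7* and 0.329 for *CYP51A1*. Without treated BT-16 it was 0.0651 for *HSD17B7*, and without treated CHLA-266 it was 0.0579 for *CYP51A1*. *TM7SF2*, a sterol reductase, had 32.5 and 14.2 CPM in BT-16 and 18.0 and 15.0 CPM in CHLA-266. Its groups did not overlap, its log2 fold change of -0.79 did not pass the threshold (SE 0.29, adjusted *p* = 0.0612), and under the block by cell line the adjusted *p* was 0.00943. The adjusted *p* of *TM7SF2* was under the threshold without treated BT-16 (0.029), untreated CHLA-266 (0.0157), or treated CHLA-266 (0.0264), and 0.476 without untreated BT-16.

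*DHCR7* encodes the last enzyme of cholesterol synthesis by one of its branches. It had 152 and 60.7 CPM before and after treatment in BT-16 and 71.6 and 54.0 CPM in CHLA-266 cells. Untreated BT-16 stood well above the other 3 libraries, and the treated libraries were still the lowest pair (log2 fold change -0.96, SE 0.30, adjusted *p* = 0.0380). Without untreated BT-16, the value of *DHCR7* was -0.32 and its adjusted *p* 0.294.

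The regulators of the SREBP system differed among themselves. *INSIG1* and *SCAP* were downregulated, and *SREBF1*, *SREBF2*, and *INSIG2* did not pass the threshold. The downregulated share of 40% compares with 19.1% of all genes and 35.1% of those with a mean count of at least 459. *INSIG1* (ENSG00000186480, chromosome 7, 155297776 to 155310235, plus strand), itself a target of SREBP, had 133 CPM in untreated and 16.4 CPM in treated BT-16 cells, and 66.0 and 22.0 CPM in CHLA-266 cells. Both treated libraries lay far below both untreated ones (5.19-fold lower, log2 fold change -2.38, SE 0.32, adjusted *p* = 0.000938). Without untreated BT-16 the value of *INSIG1* was -1.78, and without untreated CHLA-266 it was -2.80. *INSIG2*, the second retention protein, had 14.4 and 11.2 CPM in BT-16 and 15.5 and 13.4 CPM in CHLA-266. Its treated libraries were slightly below the untreated ones (log2 fold change -0.28, SE 0.24, adjusted *p* = 0.372), and under upper-quartile normalization the sign turned (0.062). Per kilobase of exon, the mean level of *INSIG1* went from 27.3 to 5.26 CPM and that of *INSIG2* from 3.78 to 3.11 CPM.

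*SREBF2* (ENSG00000198911, chromosome 22, 41833105 to 41907306, plus strand) had 240 CPM in untreated and 104 CPM in treated BT-16 cells, and 130 and 132 CPM in CHLA-266 cells. Its groups overlapped, because the level fell in BT-16 and was nearly equal in CHLA-266 (log2 ratio 0.022, interval -0.025 to 0.069). The log2 fold change was -0.65 (SE 0.27, adjusted *p* = 0.0955), with an adjusted *p* of 0.0120 with the cell line as a block. Without either CHLA-266 library the adjusted *p* of *SREBF2* was 0.0138 (untreated left out) or 0.00913 (treated left out), and it was 0.675 without untreated BT-16. *SREBF1*, which encodes the SREBP more tied to fatty acid synthesis, had 226 and 214 CPM in BT-16 and 170 and 231 CPM in CHLA-266 (log2 fold change 0.17, SE 0.18, adjusted *p* = 0.489). *SCAP* had 98.2 and 50 CPM in BT-16 and 70.1 and 51.3 CPM in CHLA-266, without overlap (log2 fold change -0.73, SE 0.19, adjusted *p* = 0.0188), and an adjusted *p* of 0.133 without untreated BT-16.

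*STARD4* (ENSG00000164211, chromosome 5, 111496033 to 111512590, minus strand) encodes a small protein that carries cholesterol between membranes. BT-16 went from 1301 to 117 counts (18.9 to 2.02 CPM) and CHLA-266 from 812 to 208 counts (13.2 to 4.00 CPM). Both treated libraries were far below both untreated ones (5.32-fold lower, log2 fold change -2.41, SE 0.39, adjusted *p* = 0.00245). Without treated CHLA-266 its value was -2.97, and without treated BT-16 it was -2.00.

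In the fatty acid branch, 4 of 6 genes were downregulated (66.7%). The share was 19.1% over all genes and 35.1% over those with a mean count of at least 459. *SCD* was upregulated, and *ACACA* did not pass the threshold. *FASN*, fatty acid synthase, had 972 CPM in untreated and 277 CPM in treated BT-16 cells, and 562 and 329 CPM in CHLA-266 cells (log2 fold change -1.34, SE 0.26, adjusted *p* = 0.00538). *ELOVL6*, which elongates palmitate to stearate, had 123 and 19.3 CPM in BT-16 and 91.0 and 27.3 CPM in CHLA-266, which was 4.58-fold lower (log2 fold change -2.20, SE 0.23, adjusted *p* = 0.000255). Neither gene showed overlap of the groups. The value of *FASN* was -0.89 (adjusted *p* = 0.0223) without untreated BT-16. *ACACA*, the acetyl-CoA carboxylase that commits acetyl-CoA to fatty acids, had 371 and 235 CPM in BT-16 and 359 and 305 CPM in CHLA-266. Its treated libraries lay below the untreated ones by less than those of *FASN* (log2 fold change -0.43, SE 0.18, adjusted *p* = 0.0919, or 0.0180 under the block by cell line). Without treated CHLA-266, the adjusted *p* of *ACACA* was 0.0269. *FADS1* and *FADS2*, neighboring desaturases of polyunsaturated fatty acids on chromosome 11, had log2 fold changes of -0.92 (adjusted *p* = 0.00713) and -1.31 (adjusted *p* = 0.00259).

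*SCD* (ENSG00000099194, chromosome 10, 100347233 to 100364826, plus strand) encodes the desaturase that turns stearate into oleate. BT-16 went from 84605 to 94308 counts (1226 to 1631 CPM) and CHLA-266 from 56551 to 95875 counts (919 to 1845 CPM). Both treated libraries were above both untreated ones (1.62-fold higher, log2 fold change 0.70, SE 0.20, adjusted *p* = 0.0260), and without untreated CHLA-266 the value was 0.50 (adjusted *p* = 0.160). Per kilobase of exon, *SCD* had the highest mean level of the 31 genes before treatment (204 CPM, followed by 82.3 CPM for *FASN* and 70.3 CPM for *ACLY*) and after it (331 CPM, followed by 34.8 CPM for *ACLY* and 32.5 CPM for *FASN*). The share of *SCD* in the summed CPM of the 31 genes went from 21.5 to 47% in BT-16 cells, and CHLA-266 went from 23.2 to 46.3%. The summed CPM went from 5707 to 3474 in BT-16 and from 3966 to 3981 in CHLA-266. Without *SCD* the sums went from 4481 to 1842 and from 3047 to 2136. In CHLA-266, the level of 24 of the 31 genes was lower after treatment (as in 7804 of all 18066 genes), while the sum over all 31 was nearly equal.

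All 31 genes had a lower log2 ratio of treated to untreated in BT-16 than in CHLA-266, which was so for 52.8% of all genes and for 62.8% of the 9378 genes with a mean count of at least 459. The ratios had a median of -1.36 (BT-16) and -0.73 (CHLA-266), and the median difference between the cell lines was 0.75, against 0.037 over all genes. The untreated BT-16 library was the highest of the 4 in 25 of the 31 genes (80.6%), against 23.1% of all genes. Each ratio of BT-16 has this library as its denominator, and with 1 library per cell line and condition, a difference in response between the cell lines cannot be tested or told apart from a difference in this library. In 24 genes (77.4%) the ratio was below 0 in both cell lines, against 36.1% of all genes. In the same 24 genes the intervals of both cell lines also lay below 0, which was not counted over all genes. The signs differed between the cell lines in *ACSS2*, *LSS*, *SC5D*, *SREBF1*, and *SREBF2*, each lower after treatment in BT-16 and higher in CHLA-266. Averaged over both conditions, with the condition in the model, *DHCR7* was lower in CHLA-266 than in BT-16 (log2 difference -0.63, adjusted *p* = 0.0484), and the other 30 genes did not pass the threshold. Among all genes, 1.46% were lower and 0.836% higher in CHLA-266 by the same test.

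**Figure D3:**
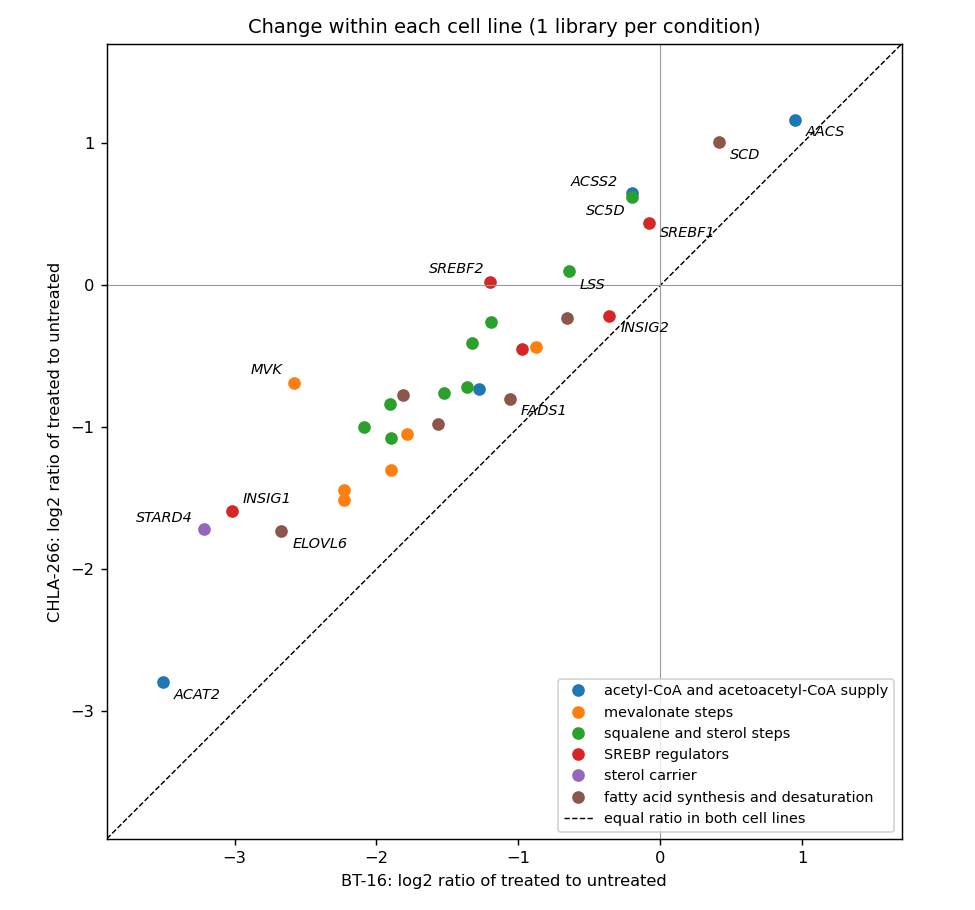
Log2 ratio of treated to untreated in BT-16 (horizontal axis) and CHLA-266 (vertical axis) for the 31 genes, 1 point per gene, colored by role, with 1 library per cell line and condition. All points lie above the dashed line of equal ratios, from *ACAT2* at -3.51 and -2.80 to *AACS* at 0.95 and 1.17.

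Genes of related pathways were read from the same test, in 7 lists of 94 genes written from general knowledge, of which 90 were measured. Together, 19 were downregulated (21.1%) and 11 upregulated (12.2%), near the shares of all genes (19.1 and 16.1%). With each library left out in turn, 13 to 21 were downregulated (lowest without untreated BT-16) and 6 to 11 upregulated (lowest without untreated CHLA-266). Of 8 other sterol synthesis enzymes and SREBP2 targets, 4 were downregulated and the other 4 did not pass, and 5 were downregulated under the block by cell line. *LBR*, a sterol reductase with the same activity as *TM7SF2* that also anchors chromatin at the nuclear envelope, went from 9831 to 1135 counts in BT-16, while CHLA-266 went from 9503 to 707 counts (log2 fold change -3.16, SE 0.21, adjusted *p* = 1.98e-05). *TMEM97*, a sterol-responsive membrane protein, went from 4303 to 451 counts in BT-16, with 3325 to 195 in CHLA-266 (log2 fold change -3.33, SE 0.33, adjusted *p* = 0.000202).

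Of 7 genes for processing and turnover of SREBP, 3 were downregulated (42.9%) and 1 was upregulated (14.3%). Among all genes, 19.1% were downregulated and 16.1% upregulated, and among those with a mean count of at least 459, 35.1 and 10.5%. *ERLIN1*, a membrane protein of the endoplasmic reticulum (log2 fold change -1.02, adjusted *p* = 0.00206), fell, as did *RNF139*, a ubiquitin ligase (-0.67, adjusted *p* = 0.0294). *FBXW7*, which marks nuclear SREBP for degradation, rose (0.58, adjusted *p* = 0.0190). Without untreated BT-16, the adjusted *p* was 0.0714 for *RNF139* and 0.105 for *FBXW7*. Without untreated CHLA-266, *RNF139* (0.143) and *FBXW7* (0.0623) did not pass either, and without treated CHLA-266 *RNF139* had 0.0658.

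Of all genes, 16.1% were upregulated, and 17.9% under the block by cell line. Of 12 genes for uptake and intracellular transport, 3 were upregulated (25%) and 1 downregulated, and the block by cell line made 6 upregulated (*VLDLR*, *NPC1*, and *NPC2* in addition). *LRP1*, a large lipoprotein receptor, went from 15073 to 31238 counts in BT-16, while CHLA-266 went from 10400 to 34206 counts (log2 fold change 1.63, SE 0.20, adjusted *p* = 0.000572). *GRAMD1B*, which moves cholesterol from the plasma membrane to the endoplasmic reticulum, went from 9 to 209 counts in BT-16, with 8 to 99 in CHLA-266 (log2 fold change 4.38, SE 0.72, adjusted *p* = 0.00255). *SCARB1*, a receptor of HDL (0.59, adjusted *p* = 0.0451), and *STARD3*, a sterol carrier of late endosomes (-0.55, adjusted *p* = 0.0467), lay near the threshold. *STARD3* lost its call without each of the 4 libraries (adjusted *p* from 0.0531 to 0.253) and *SCARB1* without either CHLA-266 library (0.264 without the untreated and 0.0672 without the treated one).

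Of 13 genes of LXR and sterol efflux, 5 were upregulated (38.5%, against 16.1% of all genes). Downregulation was called in 1 of the 13 (7.69%, against 19.1% of all genes). *CYP46A1*, which hydroxylates cholesterol for export from neurons, went from 754 to 1916 counts in BT-16, while CHLA-266 went from 797 to 2485 counts (log2 fold change 1.76, SE 0.24, adjusted *p* = 0.000966). *ABCA1*, a cholesterol exporter and LXR target, went from 18 to 287 counts in BT-16, with 38 to 227 in CHLA-266 (log2 fold change 3.41, SE 0.59, adjusted *p* = 0.00319). *APOC1*, an apolipoprotein, fell from 1180 to 300 counts in BT-16, with 969 to 179 in CHLA-266 (log2 fold change -1.93, adjusted *p* = 0.00211). *ABCG1*, a second exporter, went from 2 to 171 and from 7 to 52 counts (adjusted *p* = 0.00819, and 0.0654 without treated BT-16). *APOE* (adjusted *p* = 0.0464) and *CYP27A1* (adjusted *p* = 0.0498) passed narrowly, and both lost the call once the cell line was a block (0.0527 and 0.0551), which left 3 of 13 genes upregulated, against 17.9% of all genes. *APOE* did not pass without untreated (0.137) or treated CHLA-266 (0.315), and *CYP27A1* did not pass without untreated BT-16 (0.134), treated BT-16 (0.0853), or treated CHLA-266 (0.162).

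Apart from *CYP46A1*, the upregulated efflux genes had at most 38 counts in either untreated library. The transport gene *GRAMD1B* had 9 counts in untreated BT-16 and 8 in untreated CHLA-266. In this range the summed levels of markers of other cell types were mostly higher after treatment as well. The summed level of 5 hepatocyte markers (*ALB*, *APOA1*, *APOB*, *TTR*, and *CYP3A4*) was 0.478 and 3.72 CPM before and after treatment in BT-16 and 0.244 and 2.62 CPM in CHLA-266 cells. That of 5 macrophage markers was 0.333 and 2.42 CPM and 0.162 and 2.02 CPM, with *CD68* at 0 in both treated libraries. That of 5 adipocyte markers was 0.188 and 2.79 CPM and 0.520 and 0.808 CPM, with *ADIPOQ* at 0 in 3 libraries. For 4 oligodendrocyte markers, the sum was 2.61 and 6.38 CPM (BT-16) and 6.50 and 6.58 CPM (CHLA-266). Single markers went the other way, such as *MOBP* (75 to 27 counts in BT-16, 333 to 105 in CHLA-266), *LEP* in CHLA-266 (28 to 6 counts), and *CYP3A4* in BT-16 (15 to 10 counts). All of these sums were low, and their part in the values of the efflux genes and *GRAMD1B* was not tested.

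Esterification, storage, and the remaining fatty acid genes showed shares of downregulated genes (18.2 and 16.7%) near the 19.1% of all genes. Of 11 genes for sterol and triglyceride storage, *GPAM* (-0.87, adjusted *p* = 0.0224) and *DGAT1* (-0.73, adjusted *p* = 0.0475), enzymes of triglyceride synthesis, were downregulated. *SOAT2*, which esterifies cholesterol, was upregulated (1 to 71 counts in BT-16, 0 to 9 in CHLA-266), at least 15.2-fold against a floor of 3 counts per untreated library (adjusted *p* = 0.0306). Without treated BT-16 or untreated CHLA-266, *SOAT2* had an adjusted *p* of 0.426 or 0.0837. *GPAM* had 0.143 without untreated CHLA-266, and *DGAT1* had 0.222, 0.0700, and 0.145 without untreated BT-16, untreated CHLA-266, and treated CHLA-266. Of 24 other genes of fatty acid synthesis and elongation, 4 were downregulated and the other 20 did not pass, while the block by cell line made 7 downregulated (*OXSM*, *ELOVL1*, and *SCD5* in addition). The 4 were *HACD2* (-1.25, adjusted *p* = 0.00103) and *TECR* (-1.56, adjusted *p* = 0.00318), which act with *ELOVL6* in elongation, the citrate carrier *SLC25A1* (-1.21), and the mitochondrial transferase *MCAT* (-1.02, and adjusted *p* = 0.0732 without untreated BT-16).

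Of 15 genes of fatty acid oxidation, which breaks down what the other lists build, 4 were downregulated (26.7%, against 19.1% of all genes and 35.1% of those with a mean count of at least 459) and 1 was upregulated, or 2 under the block, which added *CPT1A* (adjusted *p* = 0.0274). *ACADM*, a dehydrogenase of medium-chain fatty acids (log2 fold change -1.17, adjusted *p* = 0.00105), *ETFA*, a carrier of electrons to the respiratory chain (-0.63, adjusted *p* = 0.0141), *ACAA2* (adjusted *p* = 0.0258), and *CPT2* (-0.98, adjusted *p* = 0.0302) fell, and the carnitine carrier *SLC25A20* rose (0.84, adjusted *p* = 0.0120). Without untreated CHLA-266, *ETFA* (0.0666), *ACAA2* (0.154), and *SLC25A20* (0.0655) did not pass, and *CPT2* did not pass without untreated (0.138) or treated BT-16 (0.0877).

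**Figure D4:**
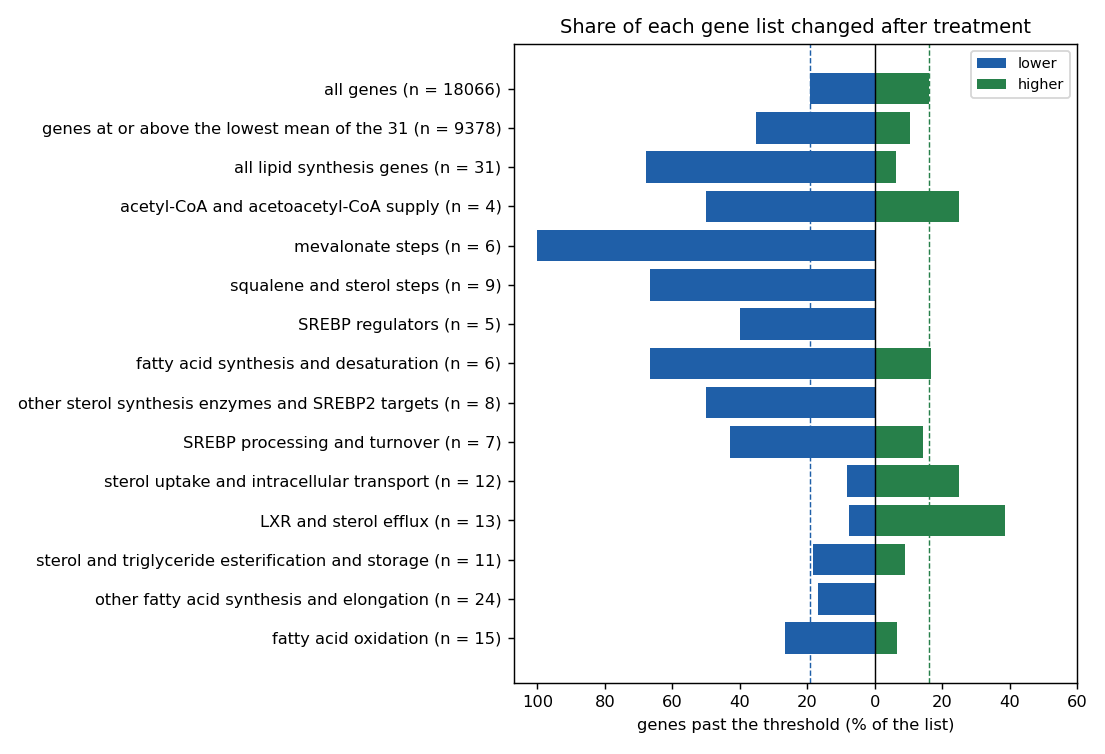
Share of each gene list past the threshold, in percent of the list, with downregulated genes to the left (blue) and upregulated genes to the right (green) and dashed lines at the shares of all genes (19.1 and 16.1%). Of the lists drawn, the mevalonate steps (6 of 6) have the largest downregulated share and LXR and sterol efflux (5 of 13) the largest upregulated share.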

How the data were processed

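RNA of 4 libraries was sequenced, 1 untreated and 1 treated library each of BT-16 and CHLA-266, prepared with a stranded kit for small amounts of RNA. The authors used bcl2fastq to demultiplex, Skewer to trim, and STAR to align the reads to hg38, obtained a count per gene, and removed genes of the sex chromosomes and genes counted repeatedly. For this reason *EBP*, *NSDHL*, *MBTPS2*, and *ACSL4* of the lists have no value. The authors deposited estimated counts without normalization, and 5 values (in 2 genes) that were not integers were rounded here. Log2 values, also deposited by the authors, come from the variance-stabilizing transformation (VST) of DESeq2 and served as an alternative. The strand setting, the annotation, and the way read pairs were counted are not given in the sources used here.

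Of 18449 symbols, 383 with a total of 0 were left out. The main test was the quasi-likelihood test of edgeR 4.0.16 (R 4.3.3) with TMM scaling, Benjamini-Hochberg adjustment over 18066 genes, a threshold of 0.05, and no cell line in the model, because the authors compared both untreated with both treated lines. The cell line differences were tested with the condition in the model. Libraries of a cell line are paired by the line itself, and a correlation of 0.321 was found between their deviations from the mean of each condition (12620 genes of 10 or more counts throughout). Log2 ratios within a cell line used TMM-scaled counts with 0.5 added. Alternatives were the cell line as a replicate block, DESeq2 1.42.0 with and without it, other scalings, filters on low counts, limma 3.58.1 on the VST values, halved counts, a log2 fold change above 1, and each library left out in turn. The depth was 49849257 to 75087193 counts per library, and counting error is largest for the genes with few counts before treatment. The tests were checked on simulated counts with a dispersion (spread between libraries) of 0.05, below the 0.14 of the main test on these data. That check therefore does not show how often calls are wrong at the spread of these data.

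All 31 genes are named. Of each related list, the 2 genes of smallest adjusted *p* in each direction past the threshold are named, and further names were chosen after their values were seen. Some genes of these lists that the rule would name, or that are counted, are not reported here by name. The genes and lists were chosen with earlier results of these data known. Exon lengths and gene positions come from GENCODE 44 on hg38 and promoter sequences from RefSeq.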

Additional observations from a re-analysis of the deposited data

Results flagged for a closer look

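In 5 of the 31 genes, the log2 ratio of treated to untreated had opposite signs in the cell lines, below 0 in BT-16 and above 0 in CHLA-266. The difference between the cell lines (CHLA-266 minus BT-16, log2 scale) was 1.22 for *SREBF2*, 0.85 for *ACSS2*, 0.82 for *SC5D*, 0.75 for *LSS*, and 0.52 for *SREBF1*. These differences were not tested, since no cell line had more than 1 library of a condition. For *SREBF2*, BT-16 had a ratio of -1.20 and CHLA-266 one of 0.022, where the interval from counting error included 0. For *LSS*, the ratios were -0.64 (BT-16) and 0.10 (CHLA-266). In *SREBF1* the ratio of BT-16 was close to 0 (-0.08) and that of CHLA-266 was 0.44. In *ACSS2* and *SC5D* BT-16 had ratios of -0.20, and CHLA-266 had 0.65 and 0.62. In *SREBF2*, *LSS*, and *ACSS2*, untreated BT-16 was the highest of the 4 libraries.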

How the results depend on the processing

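The number of downregulated genes among the 31 ranged from 16 to 24 over 10 alternative fits. The downregulated share of all genes also moved, from 10.5% (upper-quartile normalization) to 23.7% (cell line as a replicate block). Of the 31 genes, 16 were downregulated in all 10 fits. *PMVK*, *CYP51A1*, *DHCR7*, *HSD17B7*, and *SCAP* lost the call in 3 to 6 of them. *AACS* and *SCD* passed in all 10. With an absolute log2 fold change above 1, 1 gene was upregulated, and 1 to 3 with each library left out. The cell line as a replicate block added 3 downregulated genes among the 31 (24 in all). Among the related genes it gave 24 downregulated and 13 upregulated genes, with *AGPAT2* added to the downregulated genes beside the changes given above and no other call changed. Of the 90 related genes, 19 were upregulated and 10 downregulated with upper-quartile normalization, 12 downregulated with library totals, and 11 downregulated with a log2 fold change above 1, and 6 to 11 were upregulated with each library left out. The number of the 31 genes lower in CHLA-266 was 3 with DESeq2's size factors or library totals, 2 with upper-quartile normalization or halved counts, and 0 with DESeq2 or with at least 10 counts in every library (edgeR), where 3 and 5 genes had an unadjusted *p* under 0.05. The sign turned with upper-quartile normalization in *LSS* (0.045) and *INSIG2* (0.062). With each library left out, the value ranged from -0.60 to 0.057 in *LSS*, -0.28 to 0.73 in *ACSS2*, -0.021 to 0.46 in *SC5D*, and -0.024 to 0.39 in *SREBF1*. None of these 5 genes passed the threshold with all libraries under TMM. The median of all genes was 0.24 under TMM, 0.31 under size factors, 0.46 under library totals, and 0.59 under upper quartiles. The median of the 31 genes lay 1.30 below it under each of these scalings. A scaling shifts all genes by nearly the same amount, so this constant gap is no check of the result. Elsewhere the gap ran from -0.88 (at least 10 counts in every library) to -1.63 (untreated CHLA-266 left out). It was -0.97 with limma on the VST values. Among the 9378 genes with a mean count of at least 459, the median was -0.32 under TMM. The all-gene split was 2910 upregulated and 3454 downregulated with TMM, 4361 and 1895 with upper-quartile normalization, and 3678 and 2353 with library totals. The causes were not tested, apart from the scaling itself, which shifts all genes together.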
